A study of Mus musculus with 2 samples.

Results

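The collagen gene family was taken as every gene whose symbol is Col, a number, the letter a and a number with nothing after it, which gave 44 genes of the 32285 features counted. The levels come from single-cell RNA sequencing of mouse uterus at gestational day 3.5, with 1 library per genotype. The control library was from Mig-6f/f mice, in which the Mig-6 gene (symbol Errfi1) carries loxP sites but no Cre recombinase is present. The other library, labelled knockout, was from Pgrcre/+Mig-6f/f mice, which carry the same floxed gene and in addition Cre expressed from the progesterone receptor gene, so that recombination is directed at cells that express or have expressed that receptor. Mig-6 is an inhibitor of the epidermal growth factor receptor family. The labels give neither the age of the mice nor how many went into each library. With 1 library per genotype no difference between the libraries has a replicate check, no test was possible and no p-value is given. Intervals in brackets are 95% counting intervals, which cover the counting of molecules and not the difference between mice or between library preparations.

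Collagens are secreted or membrane-bound proteins built from chains that wind into a triple helix, and several chains are made only in company with partner chains. Fibrillar collagens give connective tissue its tensile strength, type IV collagens form the sheet of the basement membrane under epithelium and around muscle and vessels, and type VI collagens form beaded filaments at the boundary between cells and the interstitial matrix. In the uterus the stroma is the main producer, and its matrix is rebuilt around implantation. By role the 44 genes comprised 11 fibrillar chains, 9 fibril-associated chains, 6 chains each of the basement membrane network and of the beaded filament, 4 transmembrane chains, 3 short chain network members, 2 multiplexins, 1 anchoring fibril chain and 2 others.

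The control library held 44871170 UMIs (unique molecular identifiers, each standing for 1 captured RNA molecule) in 4627 barcodes, and the library labelled knockout held 23317904 in 3118. After filtering, 4297 and 2877 barcodes remained, with median UMI counts of 9179 and 4889, and 3 barcode sequences occurred in both libraries. Barcodes were placed in compartments by sums of marker genes that contain no collagen. In the control and the library labelled knockout in turn, the stromal rule held 2524 and 890 barcodes, the epithelial rule 748 and 1425, the muscle rule 73 and 80, the pericyte rule 33 and 20 and the endothelial rule 61 and 54. A barcode could pass several rules, and 21 of the 73 control muscle barcodes and 32 of the 80 in the other library also passed the stromal rule. A further 747 and 283 barcodes passed none of these rules nor the immune sum. Their summed level of 6 independent stromal markers was 1028 and 894 CPM (the UMIs for every 1000000 UMIs of a compartment), beside 1417 and 1312 in the stromal barcodes. The same sum was 2415 and 1638 in endothelium and 2128 and 1492 in pericytes, so it does not single out stroma. Which cells the barcodes of no rule hold was not tested. Of the 6 independent markers of each type, all 6 epithelial, pericyte and endothelial markers were highest in their own compartment in both libraries, as were 6 (control) and 5 (labelled knockout) muscle markers. Of the 6 stromal markers 3 and 2 were highest in stroma. They were Mmp2 and Hoxa11 in both libraries and Hand2 in the control. Hoxa11, a regional identity factor of the uterus, was at 133 and 137 CPM there. In both libraries Vim was highest in endothelium, Fbln1 in epithelium and Pdgfrb, also listed for pericytes, in pericytes. Hand2 was highest in pericytes in the library labelled knockout.

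The gene that the genotype targets went against its label in stroma, muscle and pericytes. Errfi1 stood at 202 CPM in control stroma and at 701 in stroma of the library labelled knockout (ratio 3.46, 3.29 to 3.64). It went from 294 to 935 in muscle (ratio 3.19, 2.51 to 4.06) and from 434 to 1368 in pericytes (ratio 3.15, 2.14 to 4.60). Its ratio was 0.894 (0.865 to 0.924) in epithelium, from 574 and 513, and 1.37 (0.836 to 2.18) in endothelium. Where the deleted part of the gene lies relative to the counted 3' ends was not examined, so these counts do not settle the genotype, and the second library is called the library labelled knockout throughout.

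Most collagen RNA came from the stroma. Summed over the family, stromal barcodes held 8137 (8101 to 8174) CPM of collagen in the control and 10383 (10274 to 10492) in the library labelled knockout, and they carried 76.3% and 76.9% of all collagen UMIs. The barcodes that passed no rule carried another 21.4% and 17.9%. Control pericytes, the contractile cells that wrap small vessels, reached 10890 CPM, muscle 4152 and endothelium 3046, while epithelium was at 154. Levels are not divided by gene length, since each UMI stands for 1 captured molecule. Whether the counts depend on gene length was not tested.

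**Figure D1:**
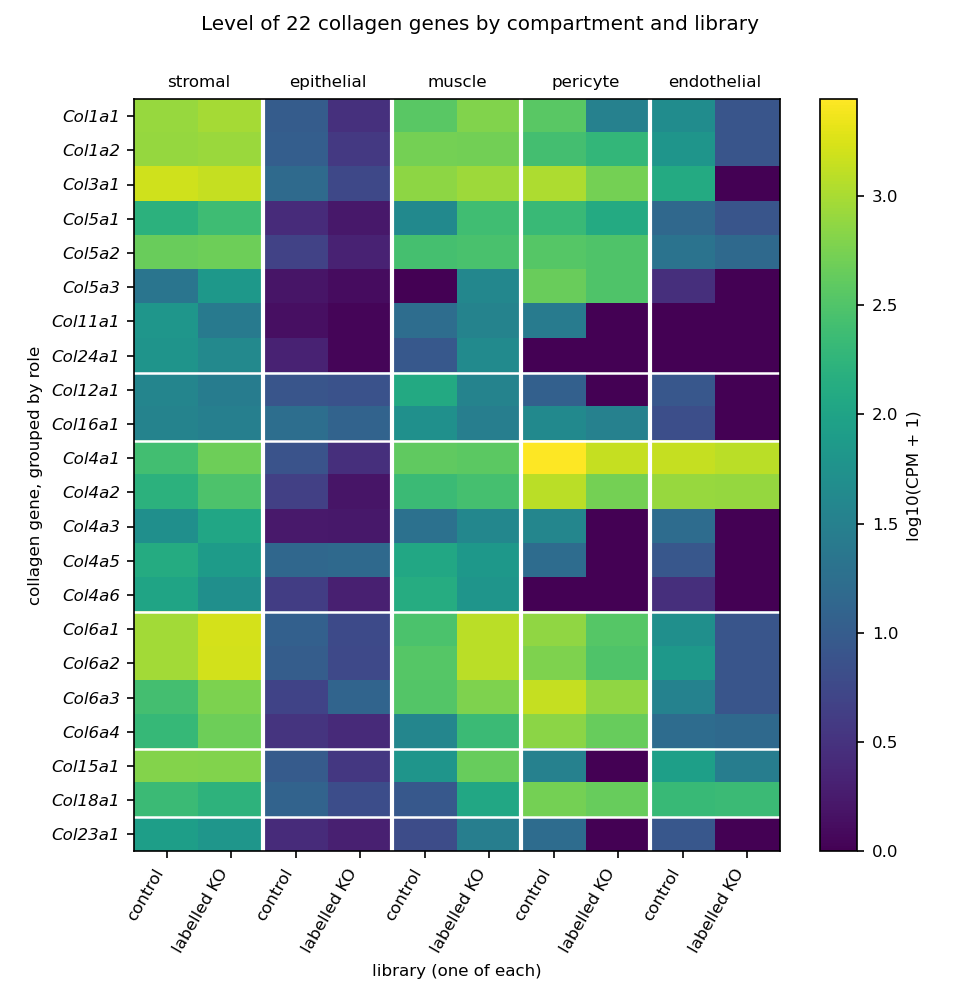
Levels of the 22 collagen genes that reached 50 CPM in a compartment of a library, as log10(CPM + 1) in colour. Rows are genes grouped by role between white lines (fibrillar, fibril-associated, basement membrane, beaded filament, multiplexin, transmembrane), columns are compartment and library with 1 library each. Col1a1, Col1a2, Col3a1, Col6a1 and Col6a2 are brightest in stroma, Col4a1 and Col4a2 in pericytes and endothelium, and the epithelial columns are dark throughout.

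Of the 44 genes, 22 reached 50 CPM in at least 1 of the 5 compartments. Col9a1, a cartilage chain, had no UMI in either library, and 5 genes had fewer than 20 UMIs over both. Among the 37 genes with at least 20 UMIs in the control, 19 were highest in stroma, 11 in pericytes, 4 in muscle, 2 in epithelium and 1 in endothelium. Of these, 10 in stroma, 6 in pericytes and 1 in muscle had a counting interval apart from that of the next compartment, and some of the other placings in pericytes rest on 1 or 2 UMIs (Col8a2, Col6a5 and Col20a1). The library labelled knockout had 32 such genes, again with 19 highest in stroma, but with 5 in pericytes and 6 in muscle, of which 10, 1 and 0 were apart from the next. Over the 32 genes measured in both libraries, 23 had the same highest compartment.

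Collagen took a larger share of the UMIs of a stromal barcode in the library labelled knockout. In absolute number the order was the opposite, with 7442 collagen UMIs per 100 stromal barcodes in the control and 3916 in the library labelled knockout, whose barcodes were the shallower. The median collagen share was 76.7 UMIs per 10,000 UMIs of a barcode in the control, with the middle 50% of barcodes between 63.3 and 95, and 102 in the library labelled knockout, with the middle 50% between 84.6 and 124. With every barcode thinned to 2000 UMIs the medians were 80 and 100. Thinning leaves the expected share of a barcode unchanged, so these medians do not check the offset against depth. The part of depth in it was not tested. The ratio of the summed levels was 1.28 (1.26 to 1.29). Scaling by the median of ratios over stromal genes in place of total UMIs shifts every stromal log2 ratio by 0.11, and on that scale the summed ratio was 1.18. In the same barcodes the summed level of 6 epithelial markers was 40.2 and 151 CPM and Malat1, a nuclear RNA, was at 10429 and 15523, and the part of either in the collagen difference was not tested.

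**Figure D2:**
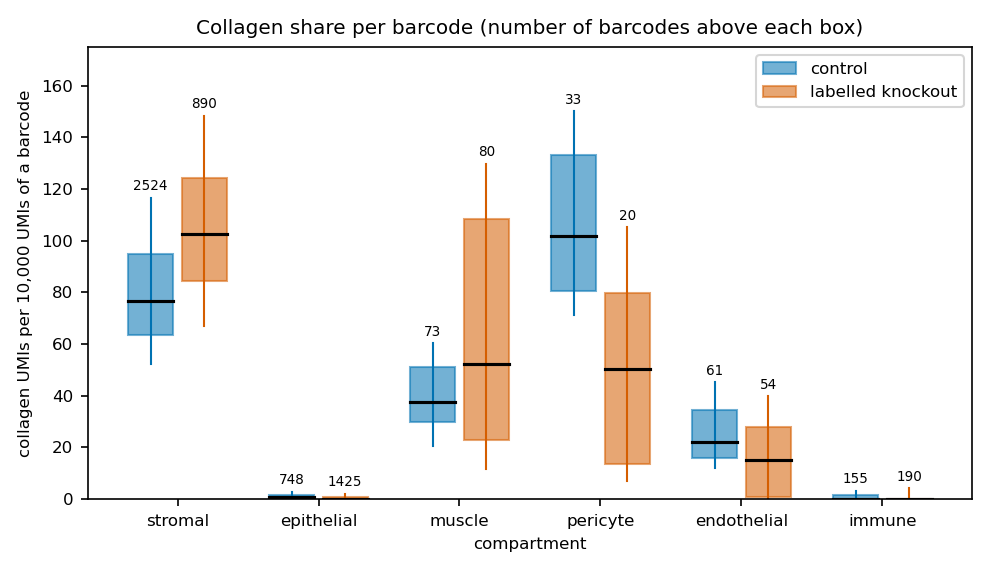
Collagen UMIs per 10,000 UMIs of a barcode (vertical axis) by compartment and library. Boxes span the 25th to the 75th percentile, black lines are medians, thin lines run from the 10th to the 90th percentile and the number of barcodes stands above each box. Stromal boxes sit at 63.3 to 95 in the control and at 84.6 to 124 in the library labelled knockout, while epithelial and immune boxes lie near 0.

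The stromal increase was uneven across the family. Of 35 collagen genes with at least 20 stromal UMIs over both libraries, 7 were at least 2-fold higher in the library labelled knockout, 6 were at least 2-fold lower and 22 lay within 2-fold. The same rule called 5.32% of all 14071 measured stromal genes higher and 11.1% lower. The family's shares were 20% and 17.1%. The median log2 ratio was -0.18 over the collagen genes and -0.04 over all genes, so the summed level was higher while the median member was slightly lower. By UMIs, beaded filament chains were 28.7% (28.5 to 28.9) of the stromal family total in the control and 42.0% (41.5 to 42.5) in the other library, and fibrillar chains 48.6% (48.4 to 48.8) and 38.9% (38.4 to 39.4).

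**Figure D3:**
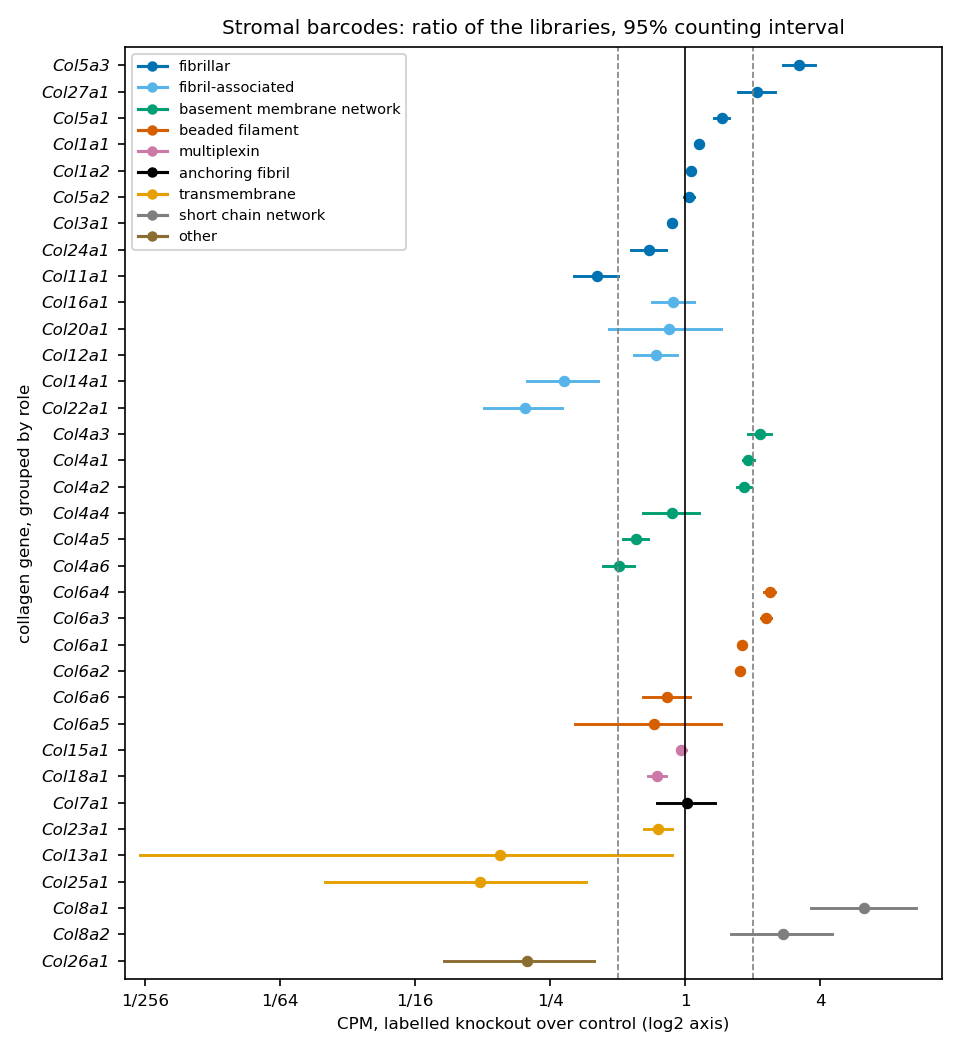
Ratio of stromal CPM, library labelled knockout over control, on a log2 axis for the 35 collagen genes with at least 20 stromal UMIs. Points are ratios, bars are 95% counting intervals, colours are roles and dashed lines mark 2-fold. Col6a1 to Col6a4 cluster between 1.75 and 2.38, the major fibrillar chains lie near 1, and Col14a1, Col22a1, Col25a1 and Col26a1 lie to the left of the lower dashed line.

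The major fibrillar chains, which make up the bulk of interstitial fibrils, differed little. Col3a1, the chain of type III collagen and the most abundant collagen RNA of control stroma, stood at 1572 CPM in control stroma and 1375 in the library labelled knockout (ratio 0.875, 0.848 to 0.902). Col1a1 stood at 812 and 938 (ratio 1.16, 1.11 to 1.2). Col1a2, its partner in type I collagen, stood at 789 and 841 (ratio 1.07, 1.02 to 1.11). In the library labelled knockout Col3a1 stood below Col6a1 and Col6a2. All 3 fibrillar chains stayed well within 2-fold, and over the alternative settings Col1a2 ranged from 0.984 to 1.1. The UMIs of Col1a1 and Col1a2 were nearly equal within each library, with a Col1a1 to Col1a2 ratio of 1.03 (1.01 to 1.05) in the control and 1.12 (1.06 to 1.17) in the library labelled knockout.

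The minor fibrillar chains, which join or nucleate the major fibrils, differed more. Col5a3 stood at 20.6 CPM in control stroma and 66.4 in the library labelled knockout (ratio 3.22, 2.74 to 3.78), while its type V partner Col5a2 stood at 458 and 474 (ratio 1.04, 0.982 to 1.09). Col5a1 lay between them with 163 and 237 (ratio 1.46, 1.35 to 1.57), and the Col5a1 to Col5a2 ratio was therefore 0.356 (0.342 to 0.369) in the control and 0.499 (0.458 to 0.544) in the other library. Col11a1, a type XI chain that copolymerises with the major fibrils, went the opposite way, with 62.8 and 25.3 (ratio 0.403, 0.320 to 0.502). Col24a1 stood at 59.1 and 40.8, and Col27a1 at 20.1 and 42.0. The 2-fold differences within the fibrillar group were thus in its low-level chains, in both directions.

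Beaded filament chains were the main contributors to the higher stromal sum. The chains of Col6a1, Col6a2 and another partner assemble in equal numbers, and Col6a1 and Col6a2 UMIs were nearly equal in both libraries, with ratios of 1.01 (0.986 to 1.02) and 1.03 (0.99 to 1.07). Col6a1 stood at 924 CPM in control stroma and 1657 in the library labelled knockout (ratio 1.79, 1.74 to 1.85). Col6a2 stood at 920 and 1613 (ratio 1.75, 1.70 to 1.81). For that partner, which can be the product of several genes, Col6a3 stood at 256 and 584 (ratio 2.29, 2.17 to 2.41), and Col6a4 at 201 and 478 (ratio 2.38, 2.25 to 2.52). All of these 4 chains were higher in the library labelled knockout, and Col6a3 and Col6a4 stayed at least 2-fold higher under each of the 9 alternative settings. Col6a6 stood at 28.3 and 23.5 and Col6a5 at 3.68 and 2.68, both with intervals that include 1. In barcodes thinned to 2000 UMIs, Col6a3 was detected in 36.2% (34.3 to 38.1) of control stromal barcodes and in 61.5% (58.0 to 64.9) of those of the library labelled knockout. Without thinning the shares were 77.5% in both, with the control barcodes the deeper (median 8795 UMIs against 3632).

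Type IV collagen changed in composition. The chains of Col4a1 and Col4a2 assemble together and occur in nearly every basement membrane, the chains of Col4a3, Col4a4 and Col4a5 form a network known from kidney and lung, and Col4a5 also assembles with Col4a6 in skin and smooth muscle. Col4a1 stood at 248 CPM in control stroma and 474 in the library labelled knockout (ratio 1.91, 1.81 to 2.02), and Col4a2 at 164 and 299 (ratio 1.83, 1.70 to 1.96). Col4a5 went the other way, from 128 to 77.5 (ratio 0.603, 0.529 to 0.685), together with Col4a6, from 102 to 51.5 (ratio 0.506, 0.431 to 0.591). Together Col4a5 and Col4a6 made up 32.3% (31.6 to 33.0) of stromal type IV UMIs in the control and 12.5% (11.5 to 13.7) in the library labelled knockout. The pair thus moved apart from Col4a1 and Col4a2 in the same barcodes.

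For these 2 pairs of neighbouring genes the UMI ratio within the pair differed less between the libraries. The Col4a1 to Col4a2 ratio in stroma was 1.51 (1.45 to 1.58) in the control and 1.58 (1.46 to 1.71) in the library labelled knockout. The Col4a5 to Col4a6 ratio was 1.26 (1.19 to 1.33) and 1.5 (1.24 to 1.83). The remaining pair did not keep its ratio, which was 2.60 (2.33 to 2.91) in the control and 6.42 (4.85 to 8.64) in the other library. Col4a3 stood at 50.8 and 109 (ratio 2.15, 1.90 to 2.41), and Col4a4 at 19.5 and 17.0 (ratio 0.869, 0.648 to 1.15). Col4a3 fell below 2-fold in 3 of the 9 alternative settings, with a lowest ratio of 1.63.

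Each of these pairs lies head to head, with the starts of both genes facing away from each other. In the RefSeq promoter table (build GRCm38.p6, in which 35 of the 44 genes were matched) the starts of Col4a1 and Col4a2 are 21 bases apart and those of Col4a5 and Col4a6 are 1343 bases apart. The deposited counts used the newer mm39 build, so the coordinates that follow belong to the promoter table alone. The upstream sequences of Col4a5 and Col4a6 are shown because in stroma this pair was lower together while Col4a1 and Col4a2 were higher. That was not so in epithelium, where the ratio was 1.05 (0.850 to 1.30) for Col4a5 and 0.320 (0.170 to 0.580) for Col4a6. Col4a1 and Col4a2 were lower there (0.285 and 0.168). In muscle the ratios of Col4a5 and Col4a6 were 0.584 (0.295 to 1.09) and 0.467 (0.233 to 0.872). For Col4a6 it is the 250 bases before the start, at chrX:141474077-141474326 on the minus strand. For Col4a5 it is the first 216 of those bases, at chrX:141475169-141475384 on the plus strand, which end before the first exon annotated by GENCODE. Both windows hold no annotated exon. Capitals mark matches on either strand to GGGCGG (the GC box) or CCAAT.
Col4a5: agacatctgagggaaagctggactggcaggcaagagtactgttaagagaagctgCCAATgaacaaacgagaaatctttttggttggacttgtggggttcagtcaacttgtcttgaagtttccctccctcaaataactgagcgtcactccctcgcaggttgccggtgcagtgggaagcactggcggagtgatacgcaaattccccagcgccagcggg
Col4a6: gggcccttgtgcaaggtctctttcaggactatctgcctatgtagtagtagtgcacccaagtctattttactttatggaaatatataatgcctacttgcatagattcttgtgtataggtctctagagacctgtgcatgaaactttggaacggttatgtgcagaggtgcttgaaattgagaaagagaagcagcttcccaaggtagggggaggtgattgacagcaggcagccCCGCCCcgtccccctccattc
The Col4a5 window held 1 CCAAT match and no GGGCGG match, and the Col4a6 window held 1 GGGCGG match, on its reverse strand and near the gene start, and no CCAAT match. Neither held TATAAA on either strand. Over 32851 promoters in the table, 30.5% held CCAAT and 27.9% held GGGCGG in the same 216 bases, and 33.8% and 32.7% in the 250 bases, so such matches are common. TATAAA occurred in 9.80% and 12.4%.

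**Figure D4:**
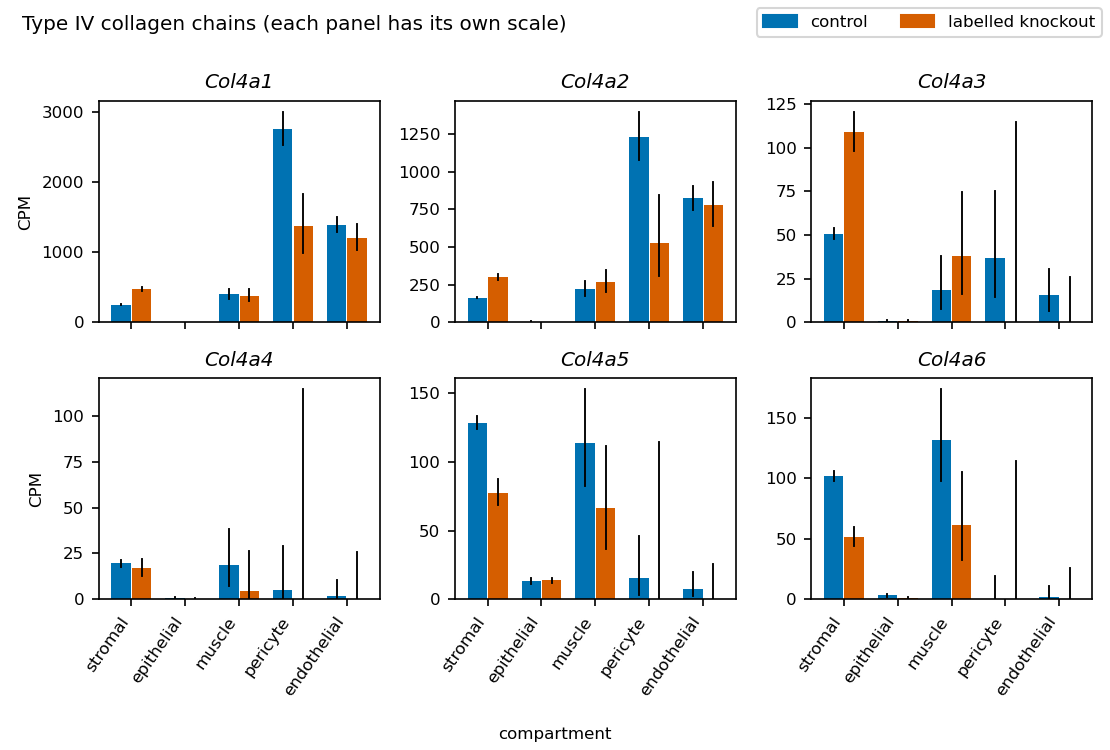
CPM of the 6 type IV collagen genes by compartment and library, with 95% counting intervals as black lines, and 1 library per bar. Each panel has its own vertical scale from 0. Col4a1 and Col4a2 are highest in pericytes and endothelium, Col4a5 and Col4a6 in stroma and muscle, and in stroma the library labelled knockout is higher for Col4a1 to Col4a3 and lower for Col4a5 and Col4a6.

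Multiplexins, basement membrane proteins whose ends can be cleaved to fragments such as endostatin, were within 2-fold. Col15a1 stood at 639 and 612 CPM in stroma (ratio 0.958, 0.915 to 1.00), and Col18a1 at 220.0 and 165 (ratio 0.749, 0.685 to 0.818). Col7a1, the anchoring fibril chain, stood at 15.8 and 16.1 (ratio 1.02, 0.752 to 1.36). Col23a1, a transmembrane chain, stood at 83.8 and 63.5 (ratio 0.757, 0.654 to 0.872).

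Fibril-associated chains, which sit on the surface of fibrils, were lower as a group. Their summed stromal level was 152 CPM in the control and 79.5 in the library labelled knockout (ratio 0.524, 0.461 to 0.594). Col12a1 stood at 36.2 and 26.8 and Col16a1 at 33.7 and 29.8, both within 2-fold, so the lower sum came mainly from 2 chains. Col22a1, known from tissue junctions, stood at 41.6 and 8.04, from 961 and 27 UMIs (ratio 0.193, 0.127 to 0.283). Col14a1, known to limit the lateral growth of fibrils, stood at 34.1 and 9.83, from 788 and 33 UMIs (ratio 0.288, 0.197 to 0.408). At equal depth Col22a1 was detected in 7.13% (6.15 to 8.21) of control stromal barcodes and 1.14% (0.522 to 2.15) of those of the library labelled knockout.

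The other genes past 2-fold in stroma were at low levels. Col26a1 stood at 12.1 and 2.38 CPM (ratio 0.196, 0.0840 to 0.392). Col25a1, a transmembrane chain, had 169 and 3 UMIs (ratio 0.122, 0.0249 to 0.363), and Col13a1, another transmembrane chain, had 46 and 1 (ratio 0.149, 0.00371 to 0.875). Short chain collagens, which form lattices around vessels, were higher, with Col8a1 at 1.39 and 8.64, from 32 and 29 UMIs, and Col8a2 at 2.51 and 6.85, from 58 and 23 UMIs. These genes, with Col4a4, Col6a5, Col6a6, Col7a1, Col9a2, Col14a1, Col20a1, Col22a1, Col27a1 and Col28a1, do not reach 50 CPM with 20 UMIs in any of the 5 compartments and were named after their values were seen.

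The stroma was also split by Dpt, Igfbp6, Clec3b and Pi16, markers of matrix fibroblasts. A sum of at least 5 per 10,000 UMIs was reached by 81.9% of stromal barcodes in the control (2067) and by 74.3% in the other library (661). The split cuts a continuous range, with 986 and 329 barcodes between 2.5 and 10. Col6a4 was lower in matrix than in other stroma of the control (187 and 268 CPM, a ratio of 0.699, 0.652 to 0.749), as were Col4a5 (120 and 171), Col4a6 (93.7 and 141) and Col22a1 (37.0 and 63.9), while Col14a1 was higher (36.7 and 22). Summed collagen hardly differed between the 2 parts, at 8123 and 8205 in the control and 10530 and 9932 in the library labelled knockout.

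Both parts of the stroma showed the difference between libraries. In matrix stroma the summed ratio was 1.30 (1.28 to 1.31), and of 35 measured genes 7 were at least 2-fold higher and 7 lower, beside 4.66% and 11.4% of all genes there. In other stroma the summed ratio was 1.21 (1.18 to 1.24), and of 31 measured genes 4 were higher and 6 lower, beside 6.53% and 10.1%. For some chains the order of the parts was not the same in both libraries. Col4a1 stood at 256 in matrix and 209 in other stroma of the control, and at 453 and 536 in the library labelled knockout. Its ratio between libraries was thus 2.57 in other stroma. Col4a2 turned in the same way (166 and 152, then 281 and 356). Col6a1 (905 and 1019, then 1685 and 1571) and Col6a2 (899 and 1017, then 1641 and 1526) turned in the opposite way. Col6a3 was higher in both parts, at 260 against 591 in matrix and 235 against 566 in other stroma, and Col22a1, Col14a1, Col11a1, Col25a1 and Col26a1 were lower in both.

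Most genes of the machinery that makes and folds collagen were within 2-fold. Of 21 synthesis and folding genes measured in stroma, 1 was at least 2-fold higher and none was lower, beside 5.32% and 11.1% of all stromal genes, so the share of higher genes was near the background. Their median log2 ratio was 0.12. Serpinh1, the collagen-specific chaperone, stood at 1521 and 1563 CPM (ratio 1.03, 0.998 to 1.06). P4ha3, a prolyl hydroxylase subunit, was the exception at 1.56 and 5.36, from 36 and 18 UMIs. Just under the 2-fold line were Creb3l1, a transcription factor of secretory load, at 83.2 and 163, and Plod2, a lysyl hydroxylase, at 101 and 188. Ppib and P4hb, abundant folding enzymes, stood at 567 and 576 and at 425 and 444.

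Of 13 measured genes of secreted processing and fibril partners, 3 were higher and 1 was lower, beside the same 5.32% and 11.1% of all stromal genes. Adamts2, the protease that removes the amino-terminal propeptide of fibrillar collagen, stood at 91.9 and 198 CPM (ratio 2.15, 1.97 to 2.35). Tnxb, a fibril-spacing glycoprotein, stood at 36.9 and 77.5, and Tgfbi, a collagen-binding protein, at 1.86 and 6.55. Fmod, a small proteoglycan that binds fibrils, stood at 12.5 and 1.49, from 289 and 5 UMIs (ratio 0.119, 0.0383 to 0.281). Sparc, an abundant collagen-binding protein, stood at 1604 and 1581. Of 8 measured collagen receptors 1 was higher and 1 lower, beside those same shares of all stromal genes. Itga2 was higher, with 2.21 and 8.34, and Itga11 was lower, with 1.82 and 0.894 from 42 and 3 UMIs and an interval that includes 1. The receptors with the highest levels, Itgb1 at 257 and 271 and Ddr2 at 218 and 228, were within 2-fold.

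In epithelium most collagen UMIs were a small fraction of the stromal level. Immune barcodes, in which fibrillar collagens should not be made, served as a reference for free RNA, with 82.4 and 441 CPM of collagen at median depths of 5525 and 1769 UMIs. Those UMIs were not spread evenly in the library labelled knockout, where 87.4% of the 190 immune barcodes had no collagen UMI and, for example, 25 Col6a1 UMIs lay in 5 barcodes and 16 Col1a1 UMIs in 3, so the value there is not a level common to all barcodes. Counted per 100 barcodes, that was 49.0 and 88.9 collagen UMIs in immune barcodes, beside 222 and 103 in epithelial barcodes of the control and of the library labelled knockout. Epithelial Col1a1 stood at 9.08 and 1.96 CPM, which is 1.12% (0.908 to 1.36) and 0.209% (0.144 to 0.292) of its stromal level. Col3a1, Col6a1, Col6a2, Col5a1 and Col5a2 had similar shares of 0.830% to 1.12% in the control and of 0.243% to 0.327% in the other library.

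A few chains stood well above that share. Col16a1, a fibril-associated chain, stood at 16.4 and 11.3 CPM in epithelium, 48.7% (41.1 to 57.4) and 38.1% (29.8 to 48.9) of its stromal level. Col12a1 stood at 7.04 and 6.39, 19.4% and 23.8% of stroma, and Col4a5 at 13.2 and 13.8, 10.2% (8.60 to 12.1) and 17.8% (14.9 to 21.3). None of the 3 had a single UMI in immune barcodes, where the limit of 3 counts corresponds to 3.25 and 7.83 CPM. Epithelial Col12a1 in the library labelled knockout (6.39 CPM) lies below that limit, so the immune barcodes cannot set it apart there. Col4a6, the partner of Col4a5, was at 3.24 and 1.04, so that the Col4a5 to Col4a6 ratio in epithelium was 4.06 (2.79 to 6.05) and 13.3 (8.26 to 22.9), against 1.26 and 1.5 in stroma. Col9a2 and Col28a1, with 47 and 25 and with 35 and 8 epithelial UMIs, were the 2 genes highest in epithelium in the control.

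**Figure D5:**
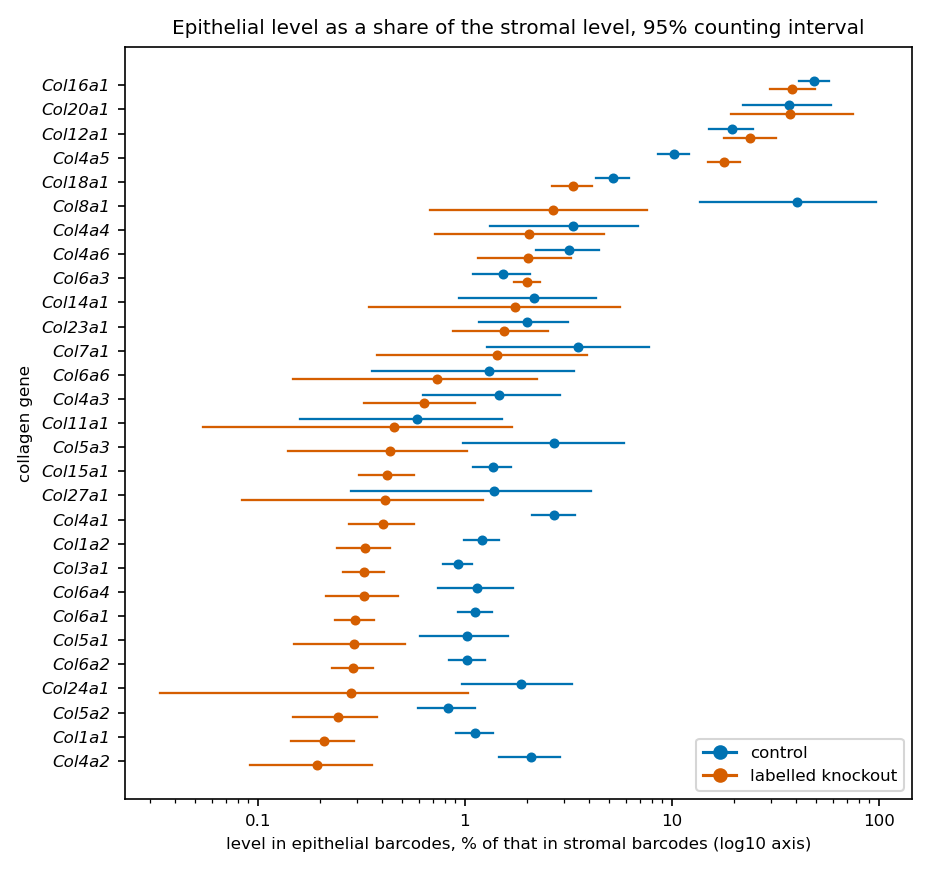
Level in epithelial barcodes as a percentage of the level in stromal barcodes of the same library (log10 axis), for 29 collagen genes with at least 15 stromal UMIs in each library. Points are percentages, bars 95% counting intervals, colours the 2 libraries. Most genes lie near 1% in the control and near 0.3% in the library labelled knockout, while Col16a1, Col20a1, Col12a1 and Col4a5 lie above 10% in both.

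Between the libraries the summed epithelial level was lower in the library labelled knockout, at 154 and 84.9 CPM (ratio 0.551, 0.513 to 0.591). Of 22 measured genes 14 were at least 2-fold lower and 1 was higher, beside 15.7% and 4.91% of all epithelial genes. Thinned to 2000 UMIs, 2 genes were lower. Of the genes above the common share, some differed less, with ratios of 1.05 (0.850 to 1.30) for Col4a5, 0.908 (0.672 to 1.23) for Col12a1 and 0.692 (0.562 to 0.852) for Col16a1. Col9a2 and Col28a1, highest in epithelium in the control, were among the lower genes, with ratios of 0.331 (0.195 to 0.548) and 0.142 (0.0569 to 0.312). The higher gene was Col6a3, at 3.89 and 11.7 CPM (ratio 3, 2.15 to 4.29), seen in 29 of 748 and 143 of 1425 barcodes. Col6a1, its partner, was at 10.4 and 4.89, so that the Col6a1 to Col6a3 ratio in epithelium was 2.67 (1.86 to 3.90) and 0.419 (0.321 to 0.542). The Col6a3 difference turned to 0.8 as a mean over barcodes and to 0.1 with the immune level subtracted, the latter resting on 9 Col6a3 UMIs in 3 immune barcodes.

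Muscle, the smooth muscle of the uterine wall and vessels, had fewer collagen UMIs than stroma. In the control, however, several chains were near or above their stromal level, among them Col4a5, Col4a6 and Col12a1. Col4a1 (399 CPM in muscle and 248 in stroma), Col4a2 (219 and 164) and Col6a3 (336 and 256) were also above it there, with intervals that did not overlap. In that library Col4a6 stood at 132 CPM in muscle and 102 in stroma, with overlapping intervals, and Col12a1 at 122 and 36.2, which did not overlap. Between the libraries the summed muscle level was 4152 and 7405 (ratio 1.78, 1.66 to 1.91), and of 17 measured genes 6 were higher and 2 lower, beside 10.0% and 9.68% of all muscle genes. The 6 higher genes were Col5a1, Col6a1, Col6a2, Col6a4, Col15a1 and Col18a1, of which Col15a1 went from 60.8 to 437. The 2 lower genes were Col12a1, from 122 to 33.2, and Col4a6, from 132 to 61.7, and in the library labelled knockout neither was apart from its stromal level (26.8 and 51.5). Stromal markers in the same barcodes summed to 418 and 1049 CPM and muscle markers to 38861 and 15502. Restricted to barcodes that pass 1 rule only, the summed ratio was 1.14, and with doubled thresholds it was 0.894, so the difference was smaller or turned without the barcodes that also pass another rule or carry fewer muscle transcripts.

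Control pericytes had the highest levels of several chains. In control pericytes Col4a1 stood at 2766 CPM, Col6a3 at 1359, Col4a2 at 1234, Col6a4 at 706, Col18a1 at 523 and Col5a3 at 444. Each was above every other compartment of that library beyond its counting interval. Col5a3 was at 20.6 in control stroma and had no UMI in control muscle. Col4a5 and Col4a6 together were 0.387% (0.0798 to 1.13) of pericyte type IV UMIs. In the library labelled knockout only Col5a3 (311 against 66.4 in stroma) was highest in pericytes beyond its counting interval. Col4a2 was highest in endothelium (777 against 529) and Col6a4 in stroma (478 against 435). Both had overlapping intervals, with 17 and 14 UMIs in pericytes. There the pericyte rule held 20 barcodes with 32163 UMIs in all, and 16 of them had under 2000 UMIs. The summed ratio was 0.525 (0.449 to 0.611), and of 13 measured genes none was higher and 4 were lower (Col1a1, Col4a1, Col4a2 and Col6a1), beside 9.07% and 16.2% of all genes. Col1a1 had 1 UMI there, and the 4 calls became 1 with 1 rule only or thinned and 2 with doubled thresholds. Muscle markers in the same barcodes summed to 4005 and 8457 CPM.

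Endothelium was led by the 2 ubiquitous type IV chains. Col4a1 stood at 1396 and 1204 CPM (ratio 0.863, 0.726 to 1.02), Col4a2 at 825 and 777 (ratio 0.942, 0.757 to 1.16), and Col18a1 at 208 and 224 (ratio 1.08, 0.701 to 1.61). These 3 vessel basement membrane genes did not differ beyond counting error. The summed ratio was 0.770 (0.682 to 0.867), and of 9 measured genes none was higher and 6 were lower, beside 7.02% and 9.31% of all genes. The 6 were Col1a1, Col1a2, Col3a1, Col6a1, Col6a2 and Col15a1, with 0 to 4 UMIs each in the library labelled knockout against 24 to 66 in the control. The control UMIs lay in few of the 61 barcodes, such as 24 Col1a1 UMIs in 4, 26 Col6a1 UMIs in 4 and 66 Col3a1 UMIs in 7. The 6 calls became 2 with barcodes that pass 1 rule only, 1 with doubled thresholds and 0 when thinned or at a minimum of 100 UMIs, and the ratios of Col1a2 (1.69) and Col6a1 (1.13) with 1 rule only were above 1. Immune markers in these endothelial barcodes summed to 40.5 and 1113 CPM, and 1 and 11 of them also passed the immune sum.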

How the data were processed

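Single-cell suspensions of uterus were sequenced on the 10x Genomics platform, per the labels' protocols. The authors deposited raw UMI counts per gene and barcode. Per the file headers, Cell Ranger 7.0.1 made them. The submitters' processing notes name Seurat and the mm39 build, and no source used here says whether intronic reads were counted. Barcodes with under 500 genes or over 15% mitochondrial UMIs were dropped, and the highest Scrublet scores were removed (0.8% per 1000 barcodes, 165 and 74 barcodes; scanpy 1.11.5). Compartments needed marker sums per 10,000 UMIs of at least 5 (Dcn, Lum, Pdgfra), 10 (Epcam, Krt8, Krt18, Cldn7), 20 (Actg2, Cnn1, Myh11, Des), 15 (Rgs5, Notch3, Abcc9, Kcnj8), 10 (Pecam1, Cdh5, Emcn, Flt1) and, for immune barcodes, 20 (Ptprc, Cd52, Laptm5, Coro1a, Tyrobp). UMIs were summed per compartment and library and given as CPM with exact Poisson intervals, and ratios with exact conditional binomial intervals, at 95% confidence (scipy 1.17.1). A difference was called at 2-fold with at least 20 UMIs over both libraries, a count of 0 being set to 3 counts. The calculation was tested on simulated counts without variation between barcodes or libraries, so that test covers the arithmetic only. Genes were named at 50 CPM in a compartment of a library with at least 20 UMIs there, and listed pathway genes at 2-fold or among the 3 highest of their list. The family, rules and lists were chosen with earlier results of these data known. Alternatives changed the barcode filters, doublet removal, overlap between rules, thresholds, weighting, depth, scaling, free RNA and the count minimum. A comparison of protein features was not run.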

Additional observations from a re-analysis of the deposited data

Results flagged for a closer look

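Col19a1, a fibril-associated chain, had its highest level outside the 5 compartments compared above. In immune barcodes it stood at 16.3 CPM in the control and 26.1 in the library labelled knockout, from 15 and 10 UMIs, each in 7 barcodes, while the highest of the 5 compartments reached 0.217 and 4.75. Col8a2 was at 6.51 and 10.4 CPM in immune barcodes, against at most 5.23 and 6.85 elsewhere, but these levels rest on few UMIs and the gaps were not tested. Both genes were singled out because their level in barcodes used only as a reference exceeded that in every compartment compared.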

How the results depend on the processing

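The direction of the stromal ratios of the named genes was the same under all 9 alternatives for every gene but Col1a2 and Col5a2, whose ratios lie near 1 (0.984 to 1.1 and 0.957 to 1.05). The stromal summed ratio of 1.28 moved to 1.24 with all deposited barcodes, without doublet removal, with the immune level subtracted and with barcodes of no rule added (chosen after seeing the data), to 1.26 as a mean over barcodes, to 1.25 thinned to 2000 UMIs and to 1.18 with median-of-ratios scaling. The 7 higher stromal genes became 13 at a minimum of 1 UMI. Of those added, Col2a1, Col9a2, Col19a1 and Col28a1 had no UMI in the library labelled knockout, where a count of 0 was set to 3 counts. Their calls do not show a higher level. The epithelial ratio of 0.551 became 0.631 with barcodes passing 1 rule, 0.341 as a mean over barcodes, 0.614 thinned, 0.600 with the other scaling and 0.382 after immune subtraction. The last value carries a limit. In the library labelled knockout the immune level was 441 CPM of collagen, above the 84.9 in epithelium, so it cannot serve as a level of free RNA there. The muscle ratio of 1.78 became 1.58 with all barcodes, 1.59 without doublet removal, 1.14 with 1 rule, 0.894 with doubled thresholds, 1.64 as a mean and 1.60 rescaled. The pericyte ratio of 0.525 became 0.615, 0.613 and 0.653 with 1 rule, doubled thresholds and thinning, and the endothelial ratio of 0.770 became 0.961 with doubled thresholds. Single genes that changed sides were Col15a1 (0.993) and Col6a4 (0.497) in muscle with doubled thresholds, Col4a2, Col4a6, Col5a1 and Col5a2 in epithelium thinned (1.05 each), and Col6a3 in epithelium, with 42 and 203 UMIs, as a mean (0.8) and after subtraction (0.1). In endothelium Col1a2 was 1.69 with 1 rule, 1.57 with doubled thresholds and 3.11 thinned, Col6a1 1.13, 1.26 and 6.21, Col3a1 1.24 thinned and Col6a2 6.21 thinned. Counts of lower genes moved from 14 to 24 at 1 UMI, to 8 at 100 UMIs and to 2 thinned in epithelium, from 6 to 0 at 100 UMIs or thinned, 2 with 1 rule and 1 with doubled thresholds in endothelium, from 4 to 1 with 1 rule or thinned, 2 with doubled thresholds and 7 as a mean in pericytes, and from 2 to 0 at 100 UMIs and 4 with doubled thresholds in muscle. Higher genes in muscle moved from 6 to 18 at 1 UMI, 3 at 100 UMIs and 1 with doubled thresholds. The single higher epithelial gene became 0 with all barcodes or as a mean and 2 after subtraction. At 1 UMI 18 pericyte and 19 endothelial genes passed the rule as higher where none did at 20. Most of these had no UMI in the library labelled knockout, where 0 was set to 3 counts, such as Col4a3 in pericytes (7 and 0 UMIs). Such calls do not show a higher level. Some calls at 1 UMI in muscle and in epithelium (Col8a2, lower with 0 and 2 UMIs) rest on the same setting. The cause of the other changes was not tested. Thinning left out 100 of 890 stromal and 16 of 20 pericyte barcodes of the library labelled knockout, so pericyte and endothelial values are limited by depth. Thinning and a minimum of 100 UMIs also leave fewer genes measured, so counts of genes there are not directly comparable with the main counts. No paired analysis was possible because each genotype has 1 library.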

Other observations

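The collagen genes on each side of the 2-fold line in stroma differed in gene length, measured from the first to the last base of the GENCODE gene (introns included, GRCm38 annotation, all 35 measured genes matched). The 6 lower genes spanned 141 to 468 kb with a median of 202 kb, the 7 higher genes 27.5 to 135 kb with a median of 107 kb, and the 22 genes within 2-fold 16.8 to 309 kb with a median of 114 kb. Over all measured stromal genes the medians were 27.4 kb for lower, 23.8 kb for higher and 24.5 kb for those within 2-fold. The pattern was noticed after the ratios were known, and its part in the differences was not tested.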
